A study of Mus musculus with 23 samples.

Results

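The olfactory receptor gene clusters were taken as the methylation windows whose midpoint lay in 1 of 4 intervals of the mouse genome (GRCm38): chromosome 2 from 85.1 to 90.5 Mb, chromosome 9 from 37.6 to 40.25 Mb, chromosome 7 from 102.4 to 103.8 Mb (the proximal chromosome 7 interval) and chromosome 7 from 104.2 to 108.9 Mb (the distal chromosome 7 interval). At E7.5 this gave 1399 of 402812 windows (384346 of them autosomal), and at E6.5 it gave 1092 of 333984 (320494 autosomal). The windows of each day were laid on a grid of their own, with only 8 windows of the whole genome common to both. A locus was therefore usually covered by different windows at E6.5 and E7.5. The tables are named for windows of 100 CpGs, but the reference sequence of a cluster window held a median of 51 CG dinucleotides at E7.5 (5th to 95th percentile, 44 to 73) and 64 at E6.5 (53 to 105.5), close to the 51 and 60 of other autosomal windows. Whether the name counts cytosines of both strands is not given in the sources used here. The intervals spanned 14.15 Mb and 862 annotated genes, of which 624 were olfactory receptor genes (501 coding and 123 pseudogenes), out of 1407 in the genome. They also held 66 other protein-coding genes, 42 of them in the distal chromosome 7 interval.

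Olfactory receptors are G protein-coupled receptors that detect odorants in the sensory neurons of the nose, where each neuron expresses a single allele of a single receptor gene. They form the largest gene family of the mouse, lie in long clusters, and are silent in nearly all other tissues, the early embryo included. Each has a short coding region in 1 exon and a promoter with few CpGs, and the windows here, which were laid out by CpG content, are long where CpGs are sparse. Most CpG-poor DNA of the genome gains methylation around implantation, to a high level in the epiblast, from which the embryo forms, and to a lower level in the extra-embryonic ectoderm (ExE), which gives rise to part of the placenta.

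DNA methylation was measured by post-bisulphite adaptor tagging (PBAT), a low-input form of bisulphite sequencing, in 23 libraries of hybrid mouse embryos, named with the maternal strain first. At E6.5 (15 libraries) the DNA came from the input fraction of MNase-digested chromatin from pools of nominally 4 epiblasts or 8 ExE: 3 epiblast and 2 ExE libraries of B6/CAST, the same numbers of CAST/B6, and 2 epiblast and 3 ExE libraries of matDKO/CAST. At E7.5 (8 libraries) it came from dissected epiblast or ExE of single wild-type embryos, 2 libraries per tissue of B6/CAST and 2 of CAST/B6. B6 was C57BL6/Babr and CAST was CAST/Ei. The matDKO mothers carried floxed Dnmt3a and Dnmt3b, the 2 de novo DNA methyltransferases, and Zp3-cre, which is active in the growing oocyte, on a B6/129 background. Their embryos by CAST fathers received a deleted maternal copy and an intact paternal copy of both genes (Dnmt3a -/+, Dnmt3b -/+), while no wild-type group carried the deletions or 129 DNA. Age differed together with pooling, chromatin preparation and sequencing, so the effect of the day cannot be told apart from these, and values of both days are given side by side. The E6.5 replicates were pools and their relation by litter was not stated, so that p-values measure the spread between these libraries. In dissected tissue, a change in the share of methylated cells and a change of methylation within each cell cannot be told apart. Values were percent methylation without read coverage, and the depth of single windows is unknown.

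The tissues were checked at the promoters of Elf5, a trophoblast factor, and Pou5f1 (Oct4), an epiblast factor. At E7.5 the Pou5f1 window was at 11.4 to 25.0% in epiblast and 37.2 to 42.1% in ExE, and the Elf5 window at 80.4 to 92.6% and 60.8 to 69.1%, without overlap. In the wild-type libraries of E6.5 the Pou5f1 window was at 1.79 to 10% in epiblast and 15.9 to 77.8% in ExE, without overlap, whereas the Elf5 window was at 75.2 to 95.2% and 69.9 to 85.2%, with overlap. Cluster windows were listed in 99.6 to 100% of cases per E7.5 library, in 85.4 to 100% per E6.5 ExE library and in 60.3 to 99.5% per E6.5 epiblast library, and 1388 windows had a value in all 8 libraries at E7.5 against 404 in all 15 and 763 in all 10 wild-type libraries at E6.5.

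The sequences below show what the windows contain, with every CG dinucleotide in capitals. The first 4 are the 250 bases before the RefSeq start of Olfr160 (M72, a receptor much used to trace axons of sensory neurons; chr9:37712281-37712530, minus strand), Olfr558 (a receptor also found in blood vessels; chr7:102702073-102702322, plus strand), Olfr544 (a receptor of azelaic acid also found in fat and liver; chr7:102488308-102488557, minus strand) and, for contrast, Taf10 (a subunit of the general transcription factor TFIID; chr7:105744339-105744588, minus strand), read 5′ to 3′ on the gene's strand from RefSeq GRCm38.p6. The last is the whole of the shortest E7.5 cluster window, which lies in the coding sequence of Rbmxl2, an RNA-binding protein of the testis (chr7:107209884-107210128, plus strand).
Olfr160: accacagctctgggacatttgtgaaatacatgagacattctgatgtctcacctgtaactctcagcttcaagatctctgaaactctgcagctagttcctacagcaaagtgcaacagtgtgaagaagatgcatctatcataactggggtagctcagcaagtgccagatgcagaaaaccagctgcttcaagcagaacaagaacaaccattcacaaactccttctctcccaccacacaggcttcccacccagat
Olfr558: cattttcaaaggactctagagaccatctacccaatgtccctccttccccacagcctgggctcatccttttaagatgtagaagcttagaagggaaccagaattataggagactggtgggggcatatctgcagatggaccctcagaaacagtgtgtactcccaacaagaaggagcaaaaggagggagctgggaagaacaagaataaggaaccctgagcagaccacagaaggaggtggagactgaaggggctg
Olfr544: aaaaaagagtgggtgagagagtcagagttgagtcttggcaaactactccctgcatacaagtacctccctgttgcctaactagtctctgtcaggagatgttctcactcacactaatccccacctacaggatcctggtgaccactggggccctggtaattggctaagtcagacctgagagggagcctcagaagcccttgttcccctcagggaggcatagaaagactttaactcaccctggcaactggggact
Taf10: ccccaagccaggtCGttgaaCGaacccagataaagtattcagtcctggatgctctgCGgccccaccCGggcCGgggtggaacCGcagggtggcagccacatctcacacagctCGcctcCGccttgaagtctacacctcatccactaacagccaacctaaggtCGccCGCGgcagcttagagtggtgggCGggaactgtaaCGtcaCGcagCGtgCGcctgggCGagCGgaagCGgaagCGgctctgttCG
Rbmxl2: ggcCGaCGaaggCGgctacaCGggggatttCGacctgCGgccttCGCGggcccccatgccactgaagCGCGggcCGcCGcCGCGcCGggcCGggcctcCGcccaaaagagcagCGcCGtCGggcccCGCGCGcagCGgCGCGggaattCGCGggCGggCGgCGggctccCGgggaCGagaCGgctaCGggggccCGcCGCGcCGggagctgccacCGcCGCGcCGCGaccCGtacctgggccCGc

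None of the 3 receptor promoters held a CG, whereas the Taf10 promoter held 21 and the Rbmxl2 window 46 in 245 bases. Among 421 olfactory receptor promoters of the same 250 bases (419 genes; 414 of the 624 annotated receptor genes could be matched by name), the median was 1 CG, 198 (47.0%) held none and 0 held 10 or more. Over all 32851 RefSeq promoters the median was 6, with 7.87% holding none and 37.8% holding 10 or more. The 527 receptor promoters outside the intervals resembled those inside, with 41.9% lacking a CG, and the 73 promoters of other genes inside them had a median of 3 and 21.9% with 10 or more. The cluster windows were accordingly long, with a median of 9649 bp at E7.5 and 12231 bp at E6.5, against 5206 and 6053 bp for other autosomal windows. They had 39.3% GC at E7.5 against 43.9% elsewhere, and 40.3% soft-masked (repeat) bases against 24.9%. Because methylation depended on window length throughout the genome, each mean below is set beside the like-length mean, the mean over autosomal windows outside the clusters weighted to the same distribution of window lengths (bins of 0.25 in log2 length).

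The first comparison was between the tissues. At E7.5 the cluster windows were methylated at 78.1 and 74.0% in the 2 B6/CAST epiblasts and at 76.8 and 79.0% in the 2 CAST/B6 epiblasts, and at 56.1 and 51.7% and at 50.8 and 54.0% in the corresponding ExE (means over 1388 windows). Every epiblast was above every ExE, by 23.8 percentage points between the group means (77.0 ± 2.15% and 53.1 ± 2.38%, SD, n = 4 each). Windows of like length differed almost as much, by 22.0 points, so that the gap between the clusters and the like-length mean was only 0.0344 to 0.391 points in the 4 epiblasts and -1.07 to -1.99 points in the 4 ExE. At E6.5 (404 windows) the wild-type epiblast libraries were at 62.5, 70.5 and 74.7% in B6/CAST and at 80.6, 80.9 and 82.6% in CAST/B6, and the ExE libraries at 43.1 and 43.2% in B6/CAST and at 62.9 and 57.4% in CAST/B6. Within each cross the epiblasts were again above the ExE, although the B6/CAST epiblast library at 62.5% lay below the CAST/B6 ExE library at 62.9%. On the 763 windows with a value in every wild-type library, the tissues differed by 24.1 points at E6.5, against 22.9 points at like length. The difference was 26.5 points in B6/CAST and 21.6 in CAST/B6 at E6.5, and 22.2 and 25.5 points at E7.5, a difference between crosses that turned round from one day to the other.

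The gap to the like-length mean depended on which other windows were used. When the comparison windows were restricted to those that overlapped no annotated gene, the mean gap in E7.5 ExE was -0.12 points rather than -1.56, and in E6.5 wild-type ExE it turned from -2.36 to 0.267 points. The small excess of the E7.5 epiblast (0.279 ± 0.164 points, SD, n = 4) became -0.201 points when the chromosome 2 interval was left out. Olfactory receptor windows outside the 4 intervals (1046 windows at E7.5) had gaps to their own like-length mean of -1.60 to -2.02 points in the epiblasts and -3.08 to -3.76 points in ExE. For the 651 cluster windows that themselves overlapped a receptor gene, the gaps were 0.102 to 0.313 points in the epiblasts and -1.87 to -2.93 points in ExE, which at E7.5 did not overlap those of the other receptor windows in either tissue. At E6.5 the ExE gaps did overlap, at -0.747 to -4.63 points (400 windows) against -3.72 to -5.01 points for the other receptor windows. Windows of the vomeronasal receptor genes, the pheromone receptors of the second olfactory organ, had gaps of -2.49 to -3.03 and -3.18 to -4.12 points.

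**Figure D1:**
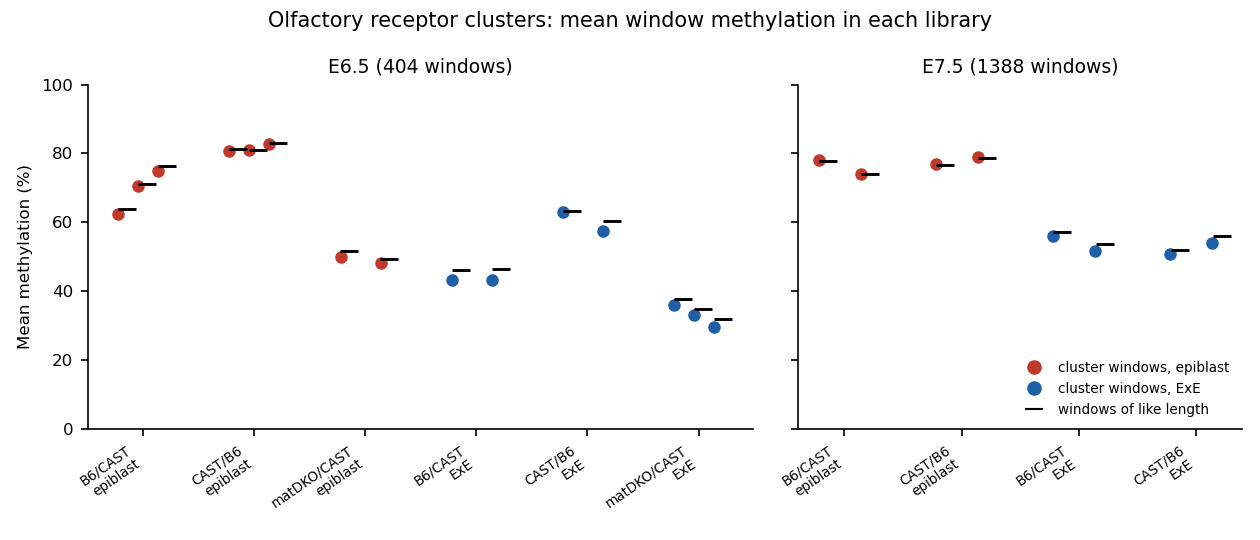
Mean percent methylation of the cluster windows in each library (dots, coloured by tissue) and of autosomal windows of like length in the same library (dashes), by day and cross. At E7.5 all 4 epiblasts lie between 74.0 and 79.0% and all 4 ExE between 50.8 and 56.1%, and dots and dashes nearly coincide.

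Each window was tested with limma across all autosomal windows with a value in every library, adjusting for the cross and for the number of windows (Benjamini-Hochberg, threshold 0.05). Of 1388 cluster windows at E7.5, 1295 were higher in epiblast and 2 were higher in ExE, which is 93.3% against 82.9% of all autosomal windows called higher in epiblast and 0.144% against 1.3% called higher in ExE (84.2% in either direction). Weighted to like length, 91.9% of other windows were called higher in epiblast, which leaves the clusters close to their background. At E6.5, 618 of 763 cluster windows were higher in epiblast and 0 were higher in ExE, against 59.6% and 0.663% of autosomal windows and 78.3% called higher in epiblast at like length. The median standard error of a cluster window's difference was 3.56 points at E7.5 and 5.94 points at E6.5.

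Windows at receptor genes were longer than windows at other genes and differed more between the tissues. Windows that held the start of an olfactory receptor gene and of no other coding gene (518 windows, median length 13081 bp) averaged 78.2% in epiblast and 48.9% in ExE at E7.5, with a mean difference of 29.3 points, a range from 6.94 to 43.3 points and 516 of 518 called higher in epiblast. Their ExE mean lay below that of like-length windows (51.3%) while their epiblast mean did not (78.1%), and they varied less from window to window than like-length windows did, with an SD of 6.89 points in ExE against 8.22 and of 4.84 points in epiblast against 5.34. Windows in the body of a receptor gene gave 79.3 and 51.4% (132 of 132 called), and windows with no receptor or other coding gene 79.2 and 56.9% (433 of 461 called higher, 1 lower). Windows holding the start of another coding gene stood apart, at 49.9 and 38.7%, with 32 of 57 called higher in epiblast, and windows in the bodies of such genes were at 75.2 and 59.96% with 182 of 220 called higher and 1 lower. Weighted to the length of each kind, the shares of other windows called higher were 98.1% for receptor starts, 95.7% for receptor bodies, 90.1% for windows with neither, 70.5% for starts of other genes and 84.1% for their bodies. Of windows with starts of coding receptors only, 405 of 407 were called, with a mean difference of 29.5 points, and of those with starts of receptor pseudogenes only, 71 of 71, with 27.4 points. At E6.5 these were 240 of 251 (95.6%, against 89.2% at like length, 29.9 points) and 35 of 39 (89.7%, against 86.6%, 26.9 points). The difference between coding genes and pseudogenes was not tested. At E6.5 the 322 receptor start windows averaged 75.5 and 45.8% in the wild-type libraries, and 307 of them (95.3%, against 89.4% at like length) were called higher in epiblast.

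**Figure D2:**
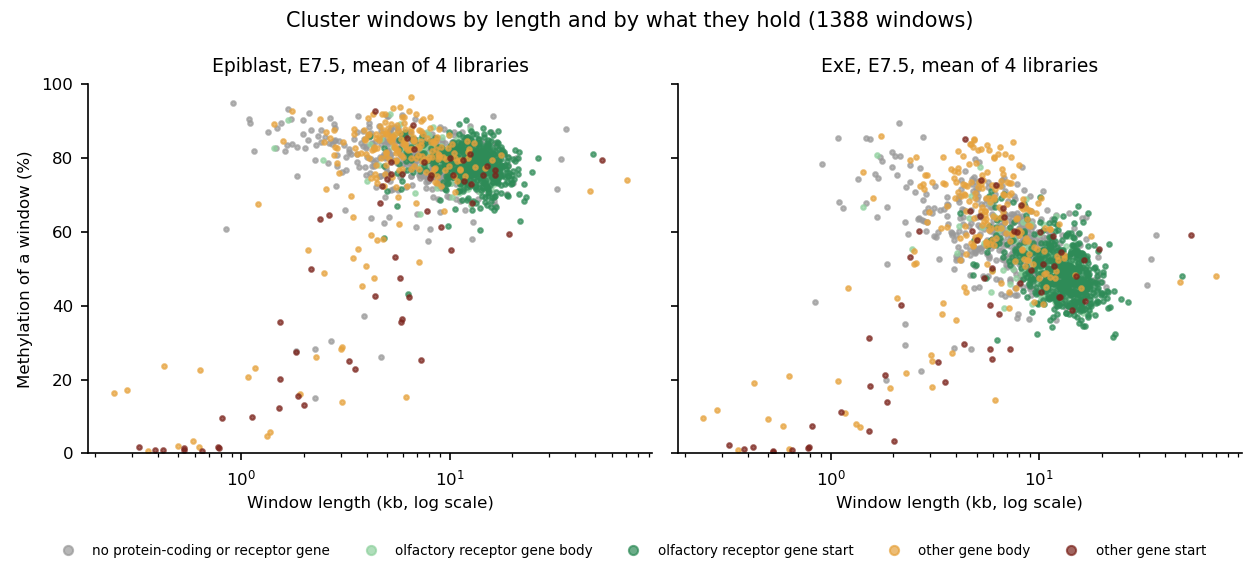
Mean percent methylation of each cluster window at E7.5 in epiblast and in ExE (4 libraries each) against its length (log scale, kb), coloured by what the window holds. Receptor start windows form a tight band near 78.2% in epiblast and 48.9% in ExE, and the windows near 0 are short and belong to other genes.

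Single receptors showed this pattern library by library. The window of Olfr78, a receptor of short fatty acids also expressed in the carotid body and blood vessels (chr7:102759442-102775242), was at 80.4, 83.0, 72.8 and 84.5% in the 4 E7.5 epiblasts and at 38.0, 48.5, 34.1 and 42.5% in the 4 ExE. The tissues did not overlap, and the difference of 39.4 ± 3.61 points (SE) passed the test (adjusted p = 8.62e-05, limma). The window of Olfr160, whose CG-free promoter is printed above (chr9:37704384-37718262), was at 77.8, 66.6, 80.01 and 81.6% in epiblast and at 52.1, 45.0, 45.2 and 56.8% in ExE. That of its neighbour Olfr151 (M71, used like Olfr160 in studies of axon guidance; chr9:37718263-37732164) was at 87.7, 75.3, 88.8 and 88.7% and at 58.0, 59.0, 49.4 and 47.5%. Both were apart in every library, by 26.8 ± 3.68 and 31.6 ± 4.10 points.

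The Olfr558 window (chr7:102693079-102702682) gave 82.6, 71.2, 83.1 and 81.5% in epiblast and 53.4, 54.8, 44.6 and 52.4% in ExE, and the Olfr544 window (chr7:102488069-102494238) 79.4, 84.4, 79.1 and 74.3% and 59.2, 55.8, 59.5 and 62.3%. Both promoters lack a CG, so the values describe the CpGs of the region around the gene and not of the promoter itself. The windows of Olfr73 (a eugenol receptor) and Olfr1019 (a receptor of a fox odour) differed by 32.4 and 28.7 points, those of Olfr17 (P2) and Olfr2 (I7, an octanal receptor) by 29.6 and 23.4, and those of Olfr545, Olfr691 and Olfr692, like Olfr78, Olfr558 and Olfr544 members of the fish-like class I of receptors, by 19.7, 15.6 and 15.2. All 12 receptor windows fixed by name were called higher in epiblast at E7.5, and their differences ran from 15.2 points (Olfr692) to 39.4 points (Olfr78). The same call was made at 82.9% of all autosomal windows and at 98.1% of other windows weighted to the length of receptor starts. At E6.5 the same test was passed at Olfr78 (75.3 and 37.7%), Olfr558 (81.2 and 45.7%), Olfr544 (79.98 and 55.0%), Olfr160 (78.7 and 53.1%), Olfr151 (69.9 and 50.9%) and Olfr2 (80.1 and 50.3%), and was missed at Olfr73 (69.8 and 54.1%, adjusted p = 0.0824, limma), Olfr691 (82.5 and 69.9%, 0.143) and Olfr692 (84.5 and 70.4%, 0.182), while the E6.5 windows of Olfr17, Olfr545 and Olfr1019 lacked a value in at least 1 library and were not tested.

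Among the cluster windows past the threshold, those with the largest differences at E7.5 were mostly at receptor genes. The Olfr486 window (chr7:108169164-108185421) was at 73.9, 83.3, 71.9 and 82.8% in epiblast and at 36.2, 37.5, 30.03 and 34.9% in ExE, a difference of 43.3 ± 3.24 points. It was preceded by a window at the pseudogene Olfr949-ps1 (43.7 ± 4.63 points) and followed by windows at Olfr1174-ps and Olfr1175-ps (43.0), at Olfr69, Olfr68 and Olfr67 (42.9) and in gene-free DNA of chromosome 2 (chr2:86894086-86908675, 42.8). At E6.5 all 5 leading windows lay in the chromosome 2 interval, at Olfr1100 (51.5 ± 6.93 points), Olfr994 (47.5), Olfr1053 (45.9) and Olfr1062 (45.3) and in gene-free DNA (chr2:89368335-89384232, 45.5). Leaders of the 2 days did not coincide, and each was chosen for its size among many.

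The 2 windows that were higher in ExE at E7.5 were 2264 and 498 bp long. One, at the distal edge of the chromosome 9 interval and in no annotated gene (chr9:40240388-40242651), was at 14.0, 16.0, 17.98 and 11.8% in epiblast and at 38.4, 45.1, 30.4 and 26.4% in ExE (-20.1 ± 3.39 points, adjusted p = 6.93e-04, limma). The other lay inside Dchs1, a large cadherin that binds Fat4 (chr7:105762506-105763003), at 1.39 to 2.71% in epiblast and 6.86 to 11.2% in ExE. In both, the tissues did not overlap.

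**Figure D3:**
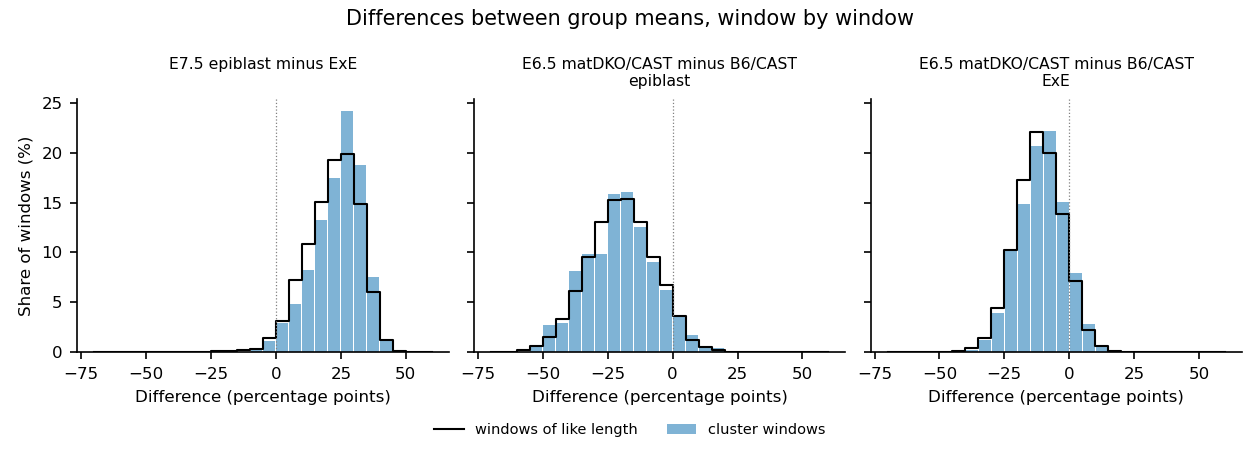
Share of cluster windows (bars) and of like-length windows (line) by size of the difference in percentage points, in bins of 5 points, for epiblast minus ExE at E7.5 and for matDKO/CAST minus B6/CAST in E6.5 epiblast and ExE. The bars follow the line in each panel, and the E7.5 tissue difference of the clusters lies mainly above 0.

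The other genes of the intervals were far less uniform. In 13 windows fixed by name, Ilk (integrin-linked kinase), Taf10 and Dchs1 were between 0 and 4.11% at their starts in all 8 E7.5 libraries, Trim3 (a ubiquitin ligase of neurons) was at 3.79 to 14.4%, and Cckbr (the gastrin and cholecystokinin receptor) at 6.56 to 16.7%. Nlrp14, a gene of oocytes and testis flanked by receptors, had the profile of a receptor instead, at 72.8, 71.9, 75.4 and 79.0% in epiblast and 48.5, 53.2, 39.4 and 44.0% in ExE (28.5 points, adjusted p = 1.43e-04, limma). The start windows of Hpx (hemopexin, a plasma haem carrier), Tpp1 (a lysosomal peptidase) and Panx3 (a channel of skeletal cells) were higher in epiblast by 12.3, 10.2 and 8.07 points, and the call at Panx3 (adjusted p = 0.0447, limma) was kept only without B6/CAST epiblast 2 or without B6/CAST ExE 1 when the 8 libraries were left out in turn. Trim21, the cytosolic antibody receptor, showed 68.0 and 65.8% (adjusted p = 0.570), Tbrg1 25.2 and 24.7% (0.894), Vwa5a 59.5 and 55.3% (0.322) and Zfp202, a zinc finger protein, 27.5 and 21.3% (0.0567), none of which passed limma's threshold at E7.5. At E6.5, Trim21 (74.8 and 44.3%, adjusted p = 0.00262, limma) and Zfp202 (49.7 and 18.7%, 0.00584) were higher in epiblast, as were Nlrp14 (33.2 points), Tpp1 (27.3), Hpx (17.2) and Panx3 (11.9), whereas Tbrg1 (54.1 and 57.96%), Cckbr (22.6 and 25.2%), Dchs1 (11.1 and 16.8%) and Taf10 (1.29 and 0%) did not pass, and Vwa5a, Trim3 and Ilk were not tested. The E7.5 Vwa5a window also held the start of Olfr919.

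Windows of low methylation were therefore mostly at other genes. In E7.5 epiblast 52 of 1388 windows (3.75%) were below 50%, against 4.40% at like length, and 24 of the 52 held the start of another gene, 21 lay in the body of one, 6 were in neither and 1 held a receptor start. Of the 52, 37 were in the distal chromosome 7 interval, which contains the block of other genes around Taf10 and Dchs1. The 1 receptor start window among the 52, chosen after its values were seen, held Olfr658 (chr7:104642870-104649170) and was at 44.6, 40.7, 41.2 and 46.7% in epiblast and at 34.3, 25.9, 24.0 and 38.7% in ExE at E7.5. The window at the same gene was also the lowest receptor start window at E6.5, with means of 40.0% in wild-type epiblast and 21.6% in ExE. Of the 25 windows below 20%, 0 overlapped a receptor gene without another gene.

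Most short windows were of 2 kinds that differed in repeat content. Of the 53 E7.5 windows shorter than 2 kb, 31 had under 20% of their bases soft-masked, all of them at the starts (14) or in the bodies (17) of other genes, and their medians were 9.93% in epiblast and 9.75% in ExE. Of the 31, 3 were above 70% in epiblast, inside Trim3 (92.7%) and Dchs1 (84.6 and 89.4%). The Rbmxl2 window printed above was also among the 31, at 21.6, 14.0, 10.3 and 19.8% in epiblast and 11.9, 11.8, 8.41 and 6.91% in ExE, overlapping between the tissues. Another 20 were at least 80% soft-masked and held no gene start, and their medians were 87.0 and 75.3%, with 19 of 20 above 70% in epiblast. Such repeat windows were 37.7% of the short cluster windows and 4.97% of short windows elsewhere, where their medians were 87.5 and 78.9%. Windows of 8 kb or more (865) averaged 78.2 and 49.9% against 78.2 and 51.8% at like length, and 859 of them were called higher in epiblast, while 415 of 470 windows of 2 to 8 kb and 21 of 53 shorter ones were. These calls were 99.3, 88.3 and 39.6% of the long, middle and short windows, against 98.1, 88.2 and 22.5% at like length.

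Along the chromosomes, the intervals differed in the size of the tissue difference. The difference between the tissues at E7.5 averaged 26.8 points in the chromosome 2 interval (484 of 496 windows called higher in epiblast), 24.1 in the chromosome 9 interval (220 of 233), 24.7 in the proximal chromosome 7 interval (142 of 150) and 20.6 in the distal one (449 of 509). The calls were 97.6, 94.4, 94.7 and 88.2% of windows, against 94.9, 94.6, 91.3 and 87.8% at like length. With windows at receptor genes only, the mean difference was 29.8, 28.2, 29.4 and 27.6 points in the same order. Beyond like length, the mean tissue difference of receptor windows was 3.66, 0.856, 4.73 and 1.41 points and that of all windows 3.38, 0.273, 3.41 and 0.583 points. In tiles of 250 kb, the E7.5 epiblast mean ran from 56.98 to 83.0% and the ExE mean from 43.8 to 64.6%. The lowest tile in both tissues lay 1.625 Mb into the distal chromosome 7 interval and had no receptor window. Over the 57 tiles measured on both days, tile means at E6.5 and E7.5 were correlated with r = 0.807 and rho = 0.676 in epiblast and r = 0.855 and rho = 0.863 in ExE, as a description only, since neighbouring tiles share libraries, base composition and gene content.

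**Figure D4:**
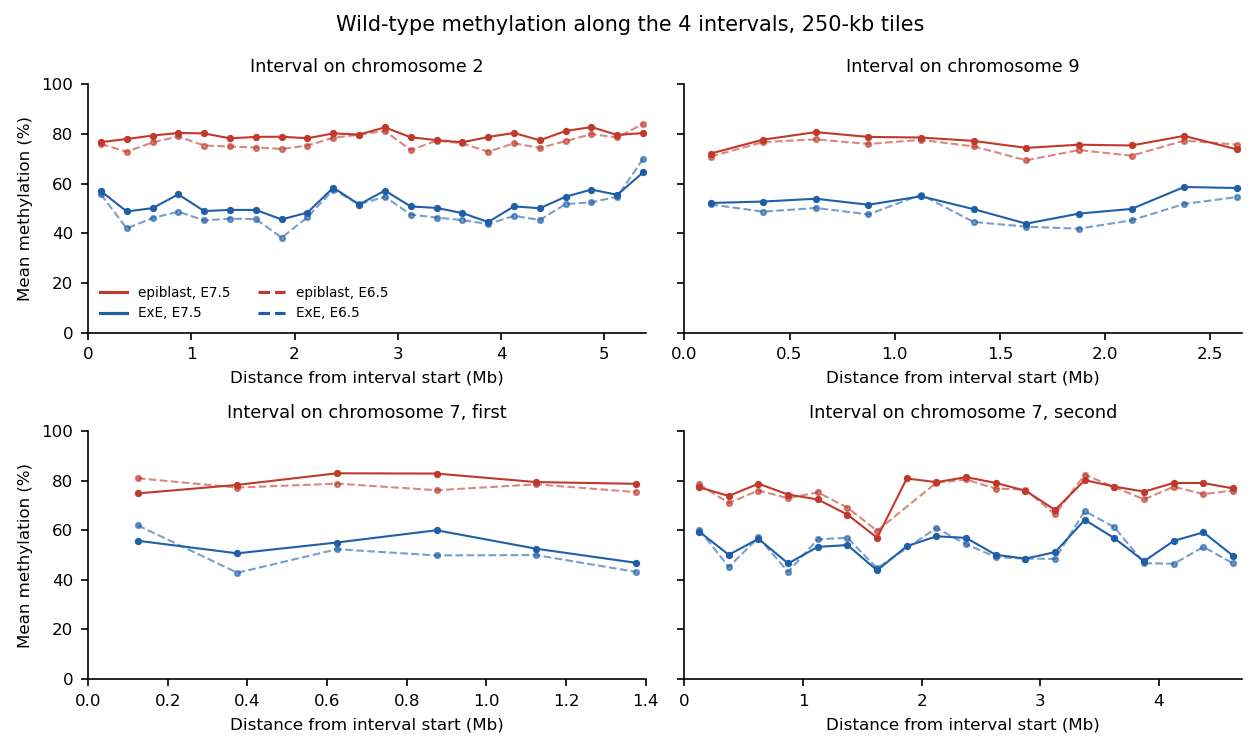
Mean percent methylation in tiles of 250 kb along the 4 intervals, by distance from the interval's start (Mb), in epiblast and ExE at E7.5 (solid) and in wild-type libraries at E6.5 (dashed). The epiblast line lies above the ExE line in every E7.5 tile, by 12.3 to 34.3 points, and both fall in the distal chromosome 7 interval, to 56.98 and 43.8% in the lowest tile.

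A second test asked which cluster windows differed between the tissues by more or less than windows of their own length, by subtracting the like-length mean of each library before fitting limma. At E7.5, 113 of 1388 windows (8.14%) had a larger difference and 51 (3.67%) a smaller one, against 5.82% and 7.84% of autosomal windows and 4.602% and 7.23% at like length. None of the 12 named receptors was among them, and of the 13 named other genes, 4 had a smaller difference than like length, namely Vwa5a (-26.5 points, adjusted p = 0.0118, limma), Trim21 (-12.4, 0.0364), Panx3 (-11.5, 0.0307) and Tbrg1 (-11.4, 0.0280). By kind of window, the mean difference beyond like length was 4.06 points in receptor bodies, 2.49 at receptor starts, 2.48 in windows with neither, -1.03 in the bodies of other genes and -3.45 at their starts, and at E6.5 it was 3.43, 2.43, 1.13, -1.48 and -3.40 points in the same order. Larger differences were found at a short repeat window of chromosome 2 (chr2:89899224-89901085, 25.6 points beyond like length), in the bodies of Cckbr (22.99) and Dchs1 (22.7), at Olfr1227-ps1 and Olfr1228 (19.98) and in gene-free DNA (chr7:102624212, 18.4). Smaller ones were found at the ExE-methylated window of chromosome 9 described above (-28.4), at Vwa5a and Olfr919 (-26.5), at AW551984 (-22.6), in Apbb1, an adaptor of the amyloid precursor protein (-19.1), and at Fam160a2 (-16.9).

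The count of such windows depended on single libraries. The 164 calls fell to 56 without B6/CAST ExE 2, to 61 without CAST/B6 epiblast 2, to 62 without CAST/B6 ExE 1, to 81 without any of B6/CAST epiblast 1, CAST/B6 epiblast 1 and CAST/B6 ExE 2, and to 97 without B6/CAST ExE 1. On the logit scale 40 were larger and 34 smaller. At E6.5 the test gave 7 larger and 1 smaller of 763 windows, against 0.653% and 1.03% of autosomal windows (1.68% together), with the largest at Olfr1036 (27.3 points), in Dchs1 (25.9) and at Olfr1122 (22.2), and the smaller one at Ppfibp2 (-21.6). That count was 0 on the logit scale and 0 without CAST/B6 epiblast 2 or 3 or B6/CAST ExE 1 or 2, and it was 2 without CAST/B6 epiblast 1 or the unnumbered B6/CAST epiblast and 3 without CAST/B6 ExE 2, but 13 without B6/CAST epiblast 1 and 19 with trend and robust settings.

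Loss of DNMT3A and DNMT3B from the oocyte was compared with B6/CAST, the cross with the same paternal strain. The cluster windows were at 49.9 and 48.0% in the 2 matDKO/CAST epiblast libraries, below all 3 B6/CAST epiblasts (62.5 to 74.7%) and all 3 CAST/B6 epiblasts (80.6 to 82.6%). In ExE the matDKO/CAST libraries were at 35.9, 32.9 and 29.6%, below the B6/CAST libraries (43.1 and 43.2%) and the CAST/B6 libraries (57.4 and 62.9%), again without overlap (404 windows). On all windows complete in the tissue, the difference from B6/CAST was -20.3 points in epiblast (478 windows) and -10.5 points in ExE (794 windows), against -20.0 and -11.3 points at like length. Measured from CAST/B6 it was -32.5 and -27.7 points, against -31.4 and -27.2 at like length, so the difference moved more with the choice of wild-type cross than with membership of the clusters. The gap to like length was -1.64 and -1.403 points in the matDKO/CAST epiblasts and -1.64 to -2.25 points in the ExE, and it turned to means of 0.247 and 1.25 points when only gene-free windows were compared.

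In the matDKO/CAST epiblast, 139 of 478 cluster windows were lower than in B6/CAST and 0 were higher, which is 29.1% against 23.4% of autosomal windows called lower, 0.0291% called higher, and 28.3% called lower at like length. The calls were spread over 63 of 197 receptor start windows (32.0%, against 30.9% at like length) and 13 of 48 receptor bodies (27.1%, against 29.3%). They also covered 6 of 31 starts (19.4%, against 23.5%) and 23 of 91 bodies of other genes (25.3%, against 24.0%) and 34 of 111 windows with neither (30.6%, against 28.1%). The largest was at Olfr1123 (chr2:87409041-87422677), where the B6/CAST libraries were at 65.0, 78.8 and 78.6% and the matDKO/CAST libraries at 21.9 and 22.2% (-52.1 ± 7.71 points, adjusted p = 0.0129, limma). It was followed by a gene-free window (chr7:107327688-107336751, -51.6), Olfr1053 (-51.3), the dynein-related gene Dnhd1 (-49.98) and Olfr921 (-49.5). At Olfr1053 the replicates were uneven, at 60.1, 70 and 91.3% in B6/CAST and at 40 and 5% in matDKO/CAST.

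Of the named receptors, Olfr1019 was lower in matDKO/CAST epiblast, with 65.5, 74.6 and 75.0% in B6/CAST and 33.3 and 32.3% in matDKO/CAST (-38.9 points, adjusted p = 0.0137, limma). The 7 others that could be tested did not pass, at -23.4 (Olfr692), -18.5 (Olfr78), -17.1 (Olfr544), -10.6 (Olfr558), -10.6 (Olfr160), -5.50 (Olfr151) and 11.5 points (Olfr73), with adjusted p between 0.112 and 0.568 (limma). The E6.5 windows holding the starts of Tpp1, Trim21, Panx3 and Cckbr were also lower, with differences of -37.1, -35.8, -26.6 and -20.7 points. The other 5 that could be tested did not pass, at -17.7 (Hpx), -14.3 (Tbrg1), -5.22 (Vwa5a), 1.14 (Dchs1) and 2.88 points (Zfp202), with adjusted p between 0.108 and 0.901 (limma). These calls depended on the setting and on single libraries. The count of 139 was 0 on the logit scale, 317 (66.3%) against both wild-type crosses, where 53.1% of autosomal windows and 64.0% at like length were called, 36 without the unnumbered B6/CAST epiblast, 66 without B6/CAST 3, 82 without CAST/B6 2 and 82 without CAST/B6 3, 92 without CAST/B6 1 and 86 without matDKO/CAST 3, the CAST/B6 libraries entering through the shared estimate of the spread.

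In ExE, 0 of 794 cluster windows and 0% of autosomal windows passed limma's threshold between matDKO/CAST and B6/CAST, with 147 cluster windows (18.5%) at an unadjusted p under 0.05 against 25.8% of all autosomal windows, and 389 (48.99%) passed when both wild-type crosses served as the wild type, against 49% of autosomal windows and 50.4% at like length. The mean difference was -9.09 points at receptor starts and -12.8 points in the bodies of other genes. Whether the matDKO difference was larger in epiblast than in ExE was tested window by window as an interaction. Of 404 cluster windows 0 passed, as did 0% of autosomal windows, with 62 (15.3%) at an unadjusted p under 0.05 against 8.80% of all.

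The reciprocal crosses differed at E6.5 throughout the genome. CAST/B6 was above B6/CAST by 12.3 points in epiblast and 17.2 points in ExE in the clusters, against 11.5 and 15.9 points at like length, without overlap of the libraries in either tissue. At E7.5 CAST/B6 minus B6/CAST was 1.82 points in epiblast and -1.54 points in ExE, with overlapping libraries. With limma, 0 cluster windows and 0% of autosomal windows were called between the crosses in E6.5 epiblast, E6.5 ExE or E7.5. At an unadjusted p under 0.05 there were 119 of 478 cluster windows (24.9%, against 14.2% of all autosomal windows), 304 of 794 (38.3%, against 23.3%) and 115 of 1388 (8.29%, against 7.02%), respectively. The labels named no batch, so the cross and any shared preparation of its libraries cannot be told apart.

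Reads of the E7.5 libraries had been assigned to the maternal or paternal genome by strain SNPs. Far fewer cluster windows than like-length windows carried such values. In the ExE libraries, 57.8 to 60.6% of cluster windows had a value on the B6 allele and 54.8 to 58.3% on the CAST allele, against 89.2 to 91.1% and 87.6 to 89.7% at like length, and in the epiblasts 46.7 to 53.5% and 40.6 to 50.4% against 77.2 to 85.3% and 71.8 to 82.3%. Vomeronasal receptor windows also had fewer, with both alleles listed in all 4 libraries for 61.7% of them in ExE and 32.2% in epiblast, against 81.7 and 51.0% at like length, compared with 49.7 and 29.0% of cluster windows. The 4 intervals were unlike in this: both alleles were listed in all 4 ExE libraries for 14.3% of windows in the chromosome 2 interval, 69.96% in the chromosome 9 interval, 76.0% in the proximal and 67.2% in the distal chromosome 7 interval (4.44, 43.8, 46.7 and 41.1% in the epiblasts). From 3.5 to 5 Mb into the chromosome 2 interval 0 of 133 windows had them. Over the autosomes, 123 of 4800 tiles of 500 kb (2.56%) had such values in under 20% of windows, and the median tile had 87.3%. The 3 Mb upstream of the chromosome 2 interval was also low, at 22.4 to 35.9% per tile. Allelic results below thus describe mainly the clusters of chromosomes 7 and 9.

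**Figure D5:**
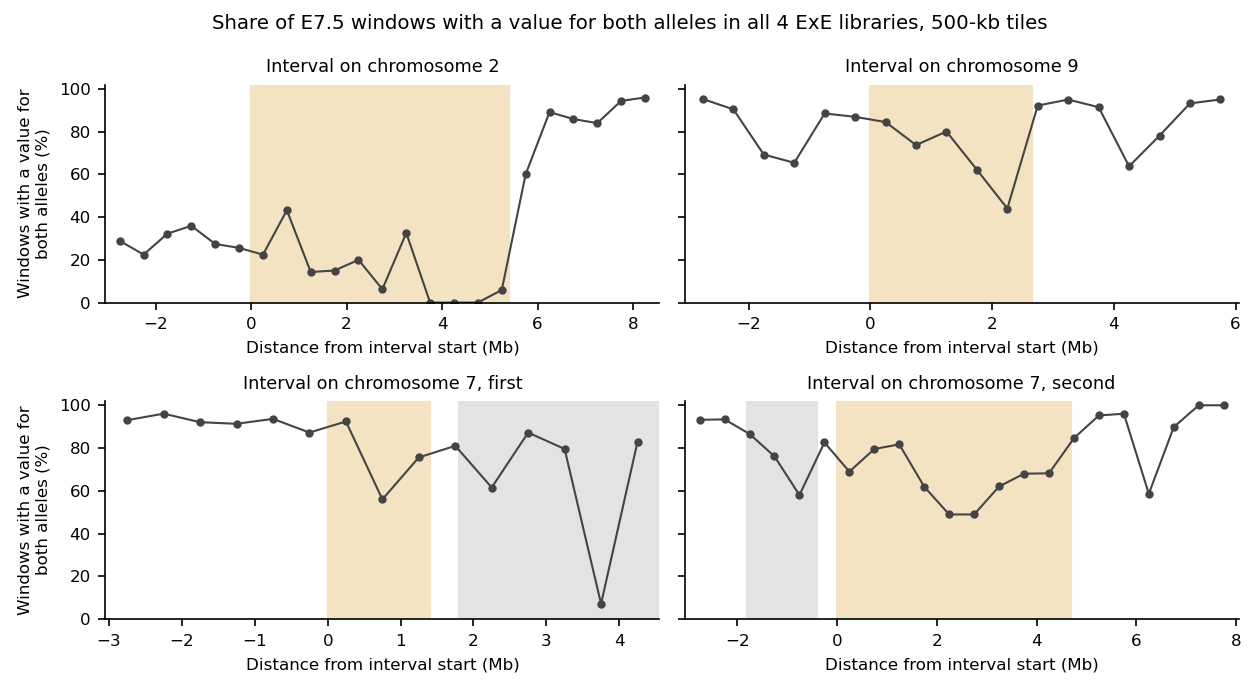
Share of windows with a value on both alleles in all 4 E7.5 ExE libraries (percent, tiles of 500 kb) against distance from each interval's start (Mb), with the interval in orange and the other chromosome 7 interval in grey. In the chromosome 2 interval the tiles range from 0 to 43.2%, while the median tile of the autosomes is at 87.3%.

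Maternal and paternal alleles had nearly equal means. Maternal minus paternal methylation over the cluster windows was 0.0137 and 1.15 points in the 2 B6/CAST epiblasts and -0.476 and 0.134 points in the 2 CAST/B6 epiblasts (403 windows), and in ExE -0.402 and -0.724 points in B6/CAST and 1.14 and 0.715 points in CAST/B6 (690 windows). The sign in ExE followed the strain and not the parent. Expressed as B6 minus CAST, the clusters were at -0.402, -0.724, -1.14 and -0.715 points in the 4 ExE, the CAST allele being higher in each, whereas like-length windows were at 0.486, 0.372, 0.789 and 0.474 points, the B6 allele being higher in each. The CAST allele was higher in all 4 ExE libraries at 76 of 690 cluster windows (11.0%, against 6.82% at like length), and the B6 allele at 51 (7.39%, against 8.56%).

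No cluster window passed limma's threshold for an allelic difference. Between parental alleles there were 0 of 403 calls in epiblast and 0 of 690 in ExE, where 0.00838% and 0.00722% of autosomal windows were called, with 28 (6.95%) and 65 (9.42%) at an unadjusted p under 0.05 against 4.87% and 6.38% of all autosomal windows. Between strains, 0 cluster windows and 0% of autosomal windows were called, with 28 (6.95%) and 100 (14.5%) at an unadjusted p under 0.05 against 6.65% and 8.74%.

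The windows with the largest differences of one sign in all 4 libraries are therefore given as values only. At Trim30d, of a family of antiviral Trim proteins (chr7:104476985-104479941), the B6 allele in ExE was at 75.6, 84.8, 81.5 and 83.5% and the CAST allele at 53.3, 38.6, 38.0 and 54.0% (adjusted p = 0.539, limma). At Olfr656 (chr7:104613012-104623866) the order was the reverse, with the B6 allele at 27.5, 25.0, 38.0 and 34.2% and the CAST allele at 53.6, 68.8, 43.5 and 62.5%. In neither did the alleles overlap. For the parents, the window at Olfr473 in ExE was at 51.9, 72.2, 59.8 and 62.7% on the maternal allele and at 43.1, 32.0, 34.1 and 36.8% on the paternal allele, and the window in Trim6 at 55.1, 66.9, 39.8 and 67.7% and at 93.1, 67.5, 90.5 and 82.8% (adjusted p = 0.777 for both, limma). The maternal values of Olfr473 were all above the paternal ones, and those of Trim6 overlapped at 1 library of each allele.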

How the data were processed

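DNA methylation was measured by PBAT in 15 E6.5 and 8 E7.5 libraries. The authors trimmed reads with Trim Galore (0.4.4 in the submitters' processing notes), aligned them to GRCm38 with Bismark (0.20.0 in those notes), and split E7.5 reads by parental genome. The authors deposited percent methylation per window in 3 tables named for 100 CpGs (E6.5, E7.5, and E7.5 by allele), without coverage and with missing values, so the depth of each sample is unknown and no interval was computed. Reads shared by near-identical receptor copies cannot be assigned to a single copy, which makes values of single family members uncertain. The number of value columns left unused was 0. One B6/CAST E6.5 epiblast column carried a number that its group's labels lack, and was assigned to the group without a replicate number (unnumbered).

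The intervals, gene lists and comparisons were chosen with earlier results of these data known. Autosomal windows with a value in every library of a comparison were fitted with limma 3.58.1 (lmFit and eBayes on percent methylation; R 4.3.3), with the Benjamini-Hochberg threshold at 0.05. Tissue fits had the cross as a covariate, matDKO and cross contrasts were taken within a tissue from all 3 crosses, and allelic fits used the difference between alleles within each library. No test was made on means over the clusters. Other steps used the R package data.table (version 1.17.8), Python 3.11.15, pandas 2.3.3, numpy 2.4.6, scipy 1.17.1 and matplotlib 3.10.9, with GENCODE M21 genes. The fits were tested on simulated data. Named windows were those at the starts of 12 receptor genes and of listed other genes inside the intervals, and up to 5 windows per direction with the largest called difference in each comparison, or up to 3 with the same sign in all 4 libraries for alleles, windows within 50 kb counting once.

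After removal of each library's mean, windows of libraries with the same replicate number deviated together little (correlations between -0.00208 and 0.0506). The numbers were not taken to pair samples. This check cannot see shifts of a whole library. At E7.5 the library with the higher cluster mean had the same number in both tissues of each cross. With 2 libraries per group, a pairing by number cannot be decided from this. The alternatives were eBayes with trend and robust settings, the logit scale, a minimum of 20 points, a replicate block, no cross term, 1 missing library per group, both wild-type crosses, other length bins and comparison windows, other choices of members, length weighting, the median, and leaving out each library. A set with a value in every wild-type library, and the like-length test of the matDKO contrast, were added after seeing the data. ChIP-seq and RNA-seq were not analysed here.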

Additional observations from a re-analysis of the deposited data

Results flagged for a closer look

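The mean difference between the parental alleles in E7.5 ExE had opposite signs in the reciprocal crosses: maternal minus paternal methylation of the cluster windows averaged -0.563 points in B6/CAST, where both libraries were negative, and 0.929 points in CAST/B6, where both were positive, a difference of -1.49 points. The difference was not tested. The gap between the clusters and windows of like length at E7.5 also had opposite signs in the tissues, being 0.279 points in the 4 epiblasts, all positive, and -1.56 points in the 4 ExE, all negative, 1.84 points apart. The difference was not tested.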

How the results depend on the processing

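The tables hold no coverage, so no minimum depth could be applied, and the precision of single windows is known only from the replicates. Of 362 alternative values for 28 counts and means, 288 stayed within 1.5 times the count or 1 SD of the mean, and the E7.5 tissue count (1297) stayed between 1259 and 1291 without any single library. The count of 0 between crosses, between alleles and in the interaction stayed at 0 under the alternatives run. The causes of the changes below were not tested.

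With the replicate number as a block, 312 windows rather than 618 were called between the E6.5 tissues, 0 rather than 139 in matDKO/CAST epiblast and 0 rather than 8 in the E6.5 like-length test, while the E7.5 tissue count was 1292. The matDKO/CAST epiblast count was 0 on the logit scale, 317 against both wild-type crosses and 36 to 189 without single libraries, and the ExE count of 0 became 389 against both wild-type crosses. The E7.5 like-length count (164) was 74 on the logit scale, 6 with at least 20 points, 779 with a single length bin and 56 to 119 without single libraries. The E6.5 count (8) was 19 with trend and robust settings, 0 on the logit scale, 5 with at least 20 points, 164 with a single bin and 0 to 13 without single libraries.

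The gap to like length in E7.5 epiblast (0.279 points) was 0.0831 with length weighting, 1.58 for the median, -0.201, 0.589, 0.0543 and 0.675 without the chromosome 2, chromosome 9, proximal and distal chromosome 7 interval, 0.849 without starts of other genes, -0.212 against windows without a gene start and 3.06 without length matching, and the mean became a median of 79.5%. In E7.5 ExE (-1.56) it was -2.53 for receptor windows only (mean, 49.4%), -4.48 without matching and -0.12 against gene-free windows. In E6.5 wild-type epiblast (-0.788) it was 0.365 for the median, -0.179 without starts of other genes, 0.432 without matching and 0.326 against gene-free windows, and in wild-type ExE (-2.36) it was -7.60 and 0.267 for the last 2. In matDKO/CAST epiblast (-1.52) it was -2.01 for the median, -2.63, -2.05 and -0.00153 without the chromosome 2, chromosome 9 and distal chromosome 7 interval, -1.92 for receptor windows, -0.899 without starts of other genes, -1.79 with bins of 0.5, -1.78 against windows without a gene start, -4.92 without matching and 0.247 against gene-free windows. The mean there was 47.3% with length weighting, 50.9% without the distal chromosome 7 interval and 46.5% for receptor windows. In matDKO/CAST ExE (-1.88) it was -2.61 for the median, -2.53 without the chromosome 2 interval, -2.99 for receptor windows (mean, 28.2%), -1.46 without starts of other genes, -8.04 without matching and 1.25 against gene-free windows.

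Among 2886 alternative values for single windows, 164 lost a call, 34 gained one, 87 changed sign with no call on either side and 7 changed sign with a call on one side. Olfr73 in matDKO/CAST ExE went from 5.44 to -20.1 points against both wild-type crosses. With a single length bin, the difference beyond other windows turned to 12.4 points at Olfr1019, 10.5 at Olfr160, -14.1 at Trim3, -16.0 at Ilk and -10.1 at Zfp202 at E7.5, and to -15.2 at Taf10 at E6.5.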
